A study of Oryza sativa with 18 samples.

Results

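The authors listed regions of the rice genome whose DNA methylation differed between dry and germinating seed or between seedlings under different gas treatments. Of these 8941 regions, 1311 were long, meaning that they spanned 100 bp or more. They came from 3 tables of differentially methylated regions: 988 of 5908 regions in the dry seed table, 242 of 2131 in the oxygen table and 81 of 902 in the re-aeration table. A place listed in more than 1 table is counted in each. Membership was decided by length alone (end minus start plus 1, at least 100 bp). All regions under 100 bp in the same table served as the comparison, and each table was analysed apart.

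In plants, cytosines are methylated in the CG, CHG and CHH contexts, where H stands for any base but G. CG methylation is copied at DNA replication by the maintenance enzyme MET1, CHG methylation is kept by chromomethylases, and CHH methylation has to be laid down again after each cell division by small RNA-guided enzymes and by a chromomethylase. In Arabidopsis, CHH methylation accumulates in the embryo during seed development and is lost again as the seedling grows.

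DNA methylation was measured in wild-type Oryza sativa cultivar Amaroo by MethylC-seq, which sequences bisulfite-treated genomic DNA and reads each cytosine as methylated or not. The 18 libraries fell into 6 groups of 3. The embryo groups were the dry seed (0h), embryos of seeds kept for 24 h in a medium flushed with nitrogen gas (24hN) and embryos of seeds kept for 24 h in an aerated medium (24hA). The coleoptile groups were 3 d in nitrogen with a last day in air (3dN1dA), 4 d in nitrogen (4dN) and 4 d in air (4dA). The coleoptile, a sheath that encloses the young leaf, is what a rice seedling elongates when oxygen is lacking. All germinating seeds were kept in the dark at 30 °C, and the dry embryos were frozen without imbibition. Whole coleoptiles were harvested and the primary leaf was cut away from those grown in air, so the gas and the dissection cannot be told apart in any comparison with 4dA. The embryo and coleoptile groups differ in organ as well as in age. No coleoptile was sampled after 3 d in nitrogen, so the level just before re-aeration is not known. The 4dN group stands beside 3dN1dA and not before it.

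The authors had picked the regions on these same libraries: the dry seed table for 0h against both 24 h groups, the oxygen table for 4dN against 4dA, and the re-aeration table for 3dN1dA against 4dN. Values for those comparisons are therefore given as a description and are no independent evidence of a difference. The dry seed table also gave values for the 9 coleoptile libraries, which its selection had not used, and the oxygen and re-aeration tables each gave 1 coleoptile group that their selection had not used. The level of a region is the percent of its reads that were methylated, used where a library had at least 10 reads, and differences are in percentage points. Every long region had at least 10 reads in every library except for 1 of the 988 regions of the dry seed table, which had 0 reads in 4dN replicate 2. A region was called when its adjusted p was under 0.05 over all regions of its table and its group means differed by at least 10 points. Separate cultures for the libraries of 1 group are not named in the labels, and p-values therefore cover the spread between these libraries alone, which may be technical. The columns are named for CG methylation while the deposited sets are named CNN, so the sequence context is not settled. Positions are those of the authors' tables, the build was not given in the sources used here, and no gene or sequence was assigned to a region.

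The long regions made up 16.7% of the regions and 35.4% of the covered bases of the dry seed table. They made up 11.4% of the regions and 31.3% of the bases of the oxygen table, and 8.98% of the regions and 24.0% of the bases of the re-aeration table. Median lengths were 123 bp (dry seed table), 123 bp (oxygen table) and 124 bp (re-aeration table), with maxima of 393, 573 and 313 bp. The dry seed table alone gave a number of cytosine sites per region, and what made a cytosine count as a site was not stated. There a long region held a median of 16 sites (3 to 90) and a shorter one 6 (3 to 38). Long regions were more sparsely set with them, at a median of 11.97 sites per 100 bp against 16.5 in shorter regions. They also carried more reads. The median per library and region was 631 in long and 222 in shorter regions at 0h, which had the most reads in that table. It was 281 in long and 104 in shorter regions at 4dA, which had the fewest. Read numbers tended to go with the level. Over long regions of the dry seed table the median was 437 reads in 3dN1dA and 297.5 in 4dN. In the oxygen table, where 4dN was the more methylated, the same libraries had 464.5 in 3dN1dA and 539 in 4dN. Read numbers are therefore not independent of the level, and why was not tested. The unit behind a read number, a molecule or a single cytosine, is not stated. Neighbouring long regions lay far apart, with a median gap of 231977 bp in the dry seed table, and only 13 of 975 gaps there were under 2000 bp.

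**Figure D1:**
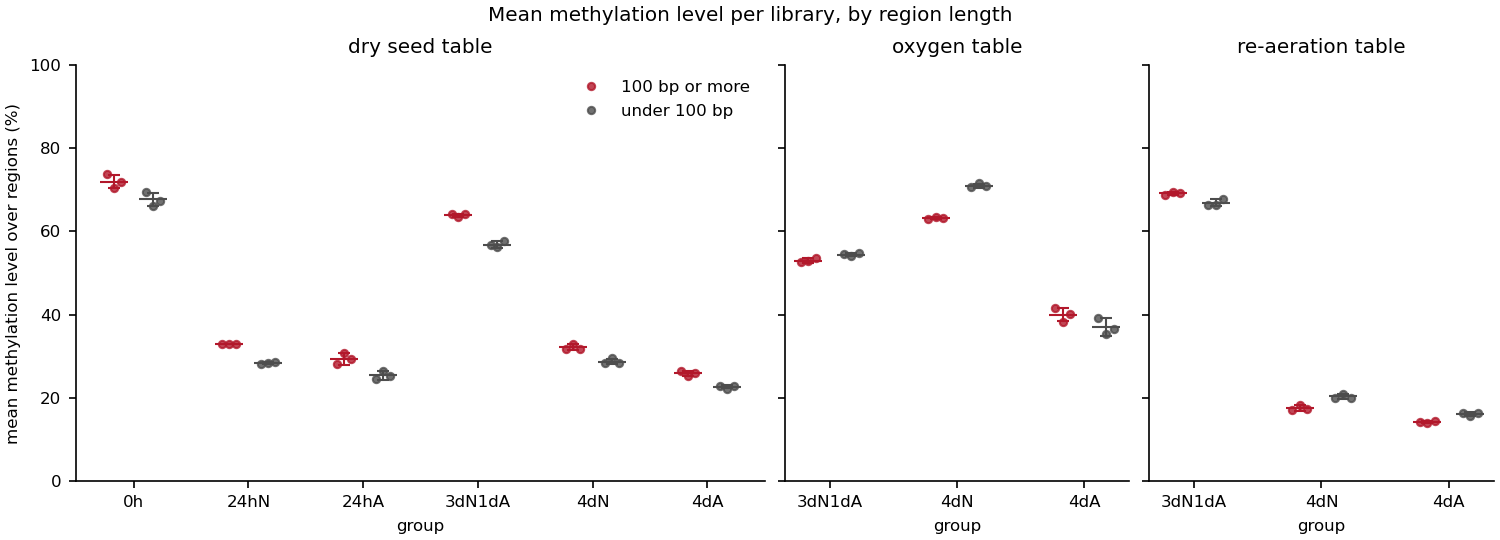
Mean methylation level per library (y axis, percent) in each group (x axis) of the 3 tables, for regions of 100 bp or more and under 100 bp; points are the 3 libraries and bars the mean ± SD over them. Long regions lie above shorter ones in all 18 libraries of the dry seed table, and below them in the 4dN libraries of the other tables.

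Long regions of the dry seed table were heavily methylated in the dry embryo, low in the 24 h embryos and in both 4 d coleoptile groups, and high again in re-aerated coleoptiles. The mean level over long regions was 73.7%, 70.4% and 71.8% in the 3 libraries of 0h, and 72.0% ± 1.65 over them (SD, n = 3). It was 32.8%, 33.0% and 32.9% in 24hN, and 28.0%, 30.9% and 29.4% in 24hA. In the coleoptiles it was 64.2%, 63.5% and 64.1% in 3dN1dA, 31.7%, 33.0% and 31.7% in 4dN, and 26.4%, 25.2% and 26.02% in 4dA. No library of 0h or 3dN1dA came near any library of the other 4 groups.

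The long regions stood above the shorter ones in all 18 libraries of this table, by 3.03 to 7.50 points. The gap was widest after re-aeration, where long regions averaged 63.9% ± 0.381 (SD, n = 3) and shorter ones 56.9% ± 0.817 (SD, n = 3). At 0h the long regions averaged 72.0% and the shorter ones 67.7%, and at 4dA they averaged 25.9% and 22.6%. High levels were more frequent among long regions at 0h, where 291 of 988 reached 80% or more, which is 29.5%, against 21.3% of shorter regions. Near-empty regions were less frequent among them at 4dA, where 42.4% of long and 52.8% of shorter regions were under 20%. The plot of level distributions shows that the 0h and 3dN1dA levels of long regions formed 1 broad peak, while the 4 other groups spread over the range below.

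**Figure D2:**
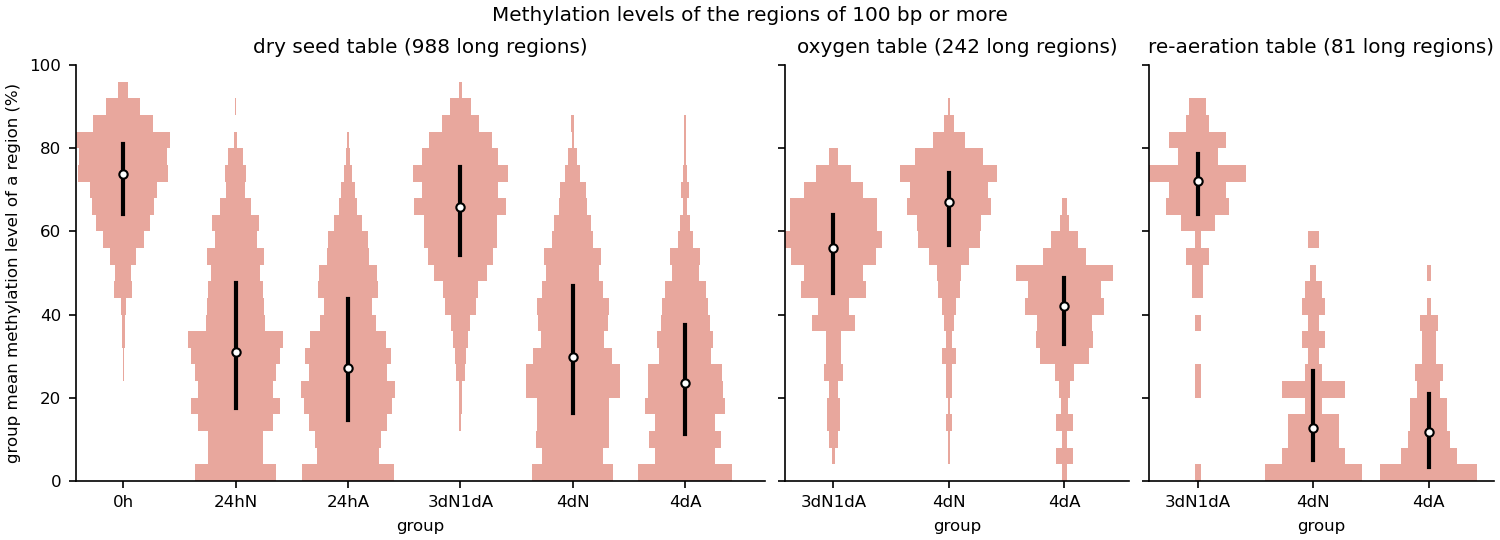
Distribution of group mean methylation levels (y axis, percent) over the regions of 100 bp or more in each group (x axis); the width of a band is the share of regions, scaled to the widest band of the group, white points are medians and black bars interquartile ranges. In the dry seed table the median long region stands at 73.9% at 0h, 65.8% in 3dN1dA and 29.9% in 4dN.

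The first comparison was of embryos germinated for 24 h in air with the dry embryo. Of the 988 long regions, 982 were called lower and 0 higher in 24hA, where 99.1% of all regions of the table were called lower. This comparison chose the regions, so the count only describes them. The median long region differed by -42.0 points (interquartile range -55.4 to -29.6) and the median shorter region by -41.2 points. In a band of regions with 200 to 400 reads per library on average, chosen after seeing the data, it was -46.8 points in 531 long and -35.1 points in 1319 shorter regions, with median read numbers of 318 in long and 249.7 in shorter regions. Read numbers tended to go with the level, so a band set on them is not independent of it. The median difference was -40.8 points in the 133 regions of 100 to 104 bp, just inside the length limit, and -43.3 points in the 156 regions of 95 to 99 bp just outside it. Differences of 50 points or more were found in 33.3% of long and 28.8% of shorter regions.

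The long regions with the largest change were almost emptied. The 104 bp region on chromosome 4 from 11739307 to 11739410 had 0% in all 3 libraries of 24hA, with 36 to 79 reads. Its 0h libraries had 89.3%, 91.0% and 90.2%, with 338 to 361 reads. The 198 bp region on chromosome 11 from 25618902 to 25619099 had 0.916%, 1.11% and 0% in 24hA, against 89.3%, 82.7% and 91.9% in 0h. The 162 bp region on chromosome 3 from 9661607 to 9661768 held 46 sites. It had 0.446%, 4.84% and 0.347% in 24hA, against 87.8%, 90.4% and 84.8% in 0h. In each of these regions the groups lay far apart, and the 24hN libraries were as low as those of 24hA, at 0% to 2.70%. After re-aeration the same regions were high again, at 71.2% ± 14.4, 87.9% ± 4.09 and 76.2% ± 4.17 in 3dN1dA (SD, n = 3 each), against 1.15% ± 1.99, 0.115% ± 0.199 and 1.70% ± 1.19 in 4dN (SD, n = 3 each).

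**Figure D3:**
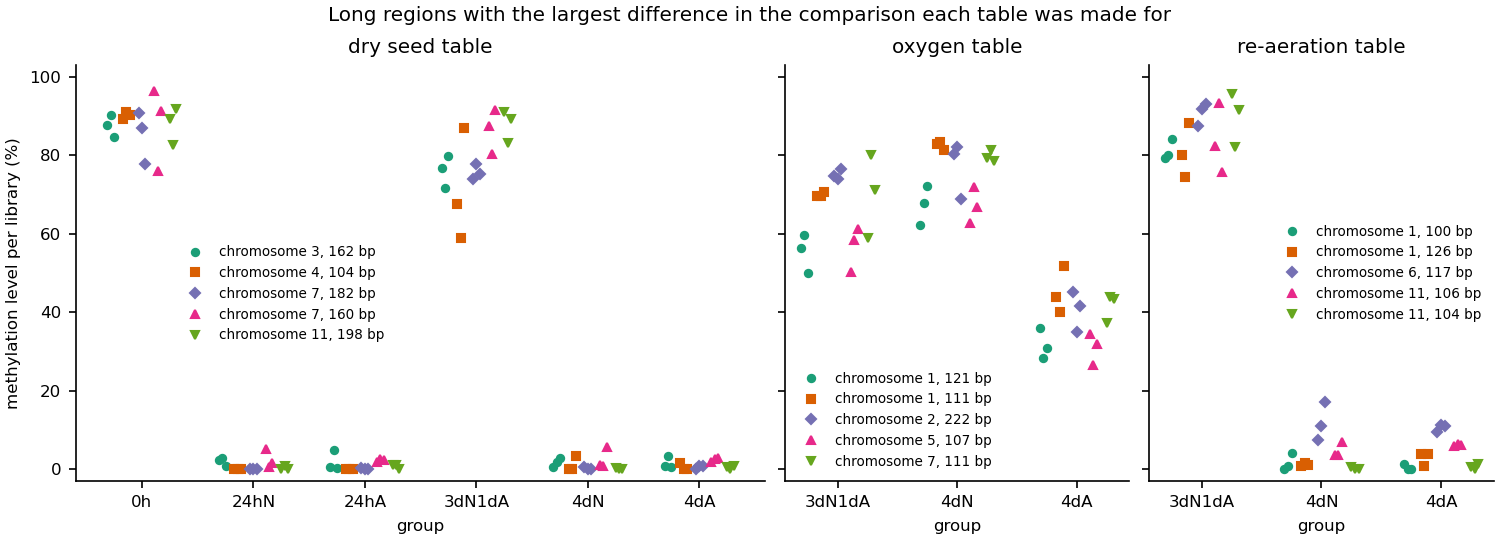
Methylation level in each library (y axis, percent) of the 5 long regions per table with the largest difference in the comparison for which the table was made, by group (x axis) and labelled by chromosome and length; each point is 1 library. In the dry seed table all 5 are at 5.74% or less in every library of 24hN, 24hA, 4dN and 4dA and at 58.9% or more in every library of 0h and 3dN1dA.

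The longest regions behaved alike. The longest of the dry seed table, 393 bp on chromosome 5 from 17879262 to 17879654, had 28.3%, 27.9% and 27.8% in 24hA, against 60.03%, 48.2% and 65.0% in 0h. The 372 bp region on chromosome 3 from 36413398 to 36413769, which held the most sites of all (90), had 27.4%, 25.7% and 25.98% in 24hA, against 82.8%, 81.3% and 76.6% in 0h. The 364 bp region on chromosome 11 from 27508403 to 27508766 had 13.5%, 12.6% and 13.1% in 24hA, against 62.2%, 62.7% and 62.6% in 0h. None of these 3 lost its methylation entirely, and in each the 24hA libraries lay close together.

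At the other end, 6 of the 988 long regions were not called. The 190 bp region on chromosome 3 from 13459003 to 13459192 had 72.0%, 78.3% and 72.9% in 24hA, against 60.5%, 84.6% and 85.8% in 0h, so the groups overlapped and 0h replicate 1 stood apart from the other 2. Its difference of -2.57 points became -10.8 without 0h replicate 1, which would be called, and turned to 1.24 without replicate 2 and to 1.87 without replicate 3. The 127 bp region on chromosome 11 from 7181880 to 7182006, the most deeply read of those described here with 4097 to 4729 reads per library, stayed between 32.6% and 36.3% in all 18 libraries. It had 33.3%, 33.7% and 33.3% in 24hA, against 35.5%, 35.1% and 35.4% in 0h, a difference of -1.86 points that was too small for a call although the groups did not overlap.

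Embryos kept 24 h in nitrogen gave nearly the same picture against the dry embryo. In 24hN 956 of 988 long regions were called lower and 0 higher, where 96.9% of all regions were called lower, with a median difference of -38.2 points in long and -38.05 points in shorter regions. In the band of 200 to 400 reads it was -44.2 points in long and -32.1 points in shorter regions. This comparison also chose the regions. The direct comparison of the gases at 24 h had not chosen them. The median long region was 2.97 points higher in 24hN than in 24hA and the median shorter region 2.52 points higher (2.69 and 3.36 points in the band), and 780 of the 988 long regions lay above 0. None of these long regions was called in either direction by the quasi-binomial model, which called 0.017% of all regions higher. Limma called none of them either, and 5 regions of the whole table higher. In the quasi-binomial model 88 long regions had an unadjusted p under 0.05.

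The authors' deposited table also names, for each region of the dry seed table, the libraries its authors listed as high or low. In the authors' deposited table all 3 libraries of 0h were listed as high in 89.3% of long and 65.8% of shorter regions. All 6 libraries of the 24 h embryos were listed as low in 58.1% of long and 20.3% of shorter regions in the authors' deposited table. The complete pattern, with all 9 libraries listed in this way, was given for 546 of the 988 long regions, which is 55.3%, against 17.5% of shorter regions in the authors' deposited table. The rule behind these lists was not given in the sources used here, and long regions had more reads.

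The coleoptile libraries had no part in choosing the regions of the dry seed table, so the second question, how these regions stood in coleoptiles, could be tested. After 1 d of re-aeration most long regions were high again. Of the 988, 774 were called higher in 3dN1dA than in 4dN and 5 lower, which is 78.3% and 0.506%, where 69.9% of all regions were called higher and 0.341% lower. The median long region was 33.0 points higher (interquartile range 15.1 to 47.2), against 26.4 points in shorter regions, of which 68.2% were called higher. The median was 20.9 points in regions of 3 to 24 bp and 25.8 points at 25 to 49 bp. It was 27.6 points at 50 to 74 bp and 31.1 points at 75 to 99 bp. Among long regions it was 31.4 points at 100 to 124 bp and 34.5 points at 125 to 149 bp. It was 32.1 points at 150 to 199 bp and 37.8 points at 200 to 393 bp. The rise thus lay partly among the shorter regions, did not hold at every step and made no jump at 100 bp. In the band of 200 to 400 reads the median was 38.9 points in long and 23.4 points in shorter regions.

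Set against the dry embryo, re-aeration brought the median long region over 83.2% of the gap between 4dN and 0h (interquartile range 58.8% to 94.5%, in the 966 regions with a gap of at least 10 points), against 72.9% in shorter regions. The 0h libraries were used to choose these regions, which favours a high 0h level, and 0h is another organ. The 4dN libraries enter both the gap and the distance from 4dN. Median read numbers were 376 in long and 141 in shorter regions, and their part in these shares was not tested. The re-aerated level lay nearer to 0h than to 4dN in 777 of 988 long regions, which is 78.6%, and in 72.6% of shorter regions. It came within 10 points of the dry embryo in 616 of 988 long and 2396 of 4920 shorter regions. In 132 long regions (13.4%) and 608 shorter ones (12.4%) it was less than 5 points above 4dN, so these shares were nearly equal.

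Long regions were also split by how densely they were set with the authors' sites. Sites were given for regions that the comparison of embryos had chosen, so their density is not independent of that comparison. In the 247 long regions with the most sites per bp (17.6 or more per 100 bp), the mean level was 67.1% ± 0.604 in 3dN1dA and 20.1% ± 0.934 in 4dN (SD, n = 3 each). Their median region lay 89.0% of the way from 4dN to 0h. In the 249 with the fewest (6.67 or fewer), the mean level was 61.5% ± 0.160 in 3dN1dA and 50.1% ± 0.837 in 4dN (SD, n = 3 each), with a median of 37.4% of the way. The sparse regions had also lost less at germination: they averaged 46.7% in 24hA against 73.4% in 0h, and the dense ones 17.4% in 24hA against 73.7% in 0h. The dense and the sparse regions thus stood at almost the same level in the dry embryo, and their median lengths were 120 bp for the dense and 122 bp for the sparse regions. Median read numbers were 359 per library in the dense and 429 in the sparse regions, and their part in these differences was not tested.

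The single long regions given next were taken from those called higher in 3dN1dA than in 4dN, and their differences were large. That choice favours groups lying clear of the spread between libraries, so the values and adjusted p only describe these regions. In the same comparison 209 long regions were not called. The 198 bp region on chromosome 11 described above had 91.1%, 83.3% and 89.3% in 3dN1dA, against 0.344%, 0% and 0% in 4dN (87.8 points, adjusted p = 1.25e-07 in the quasi-binomial model). The 160 bp region on chromosome 7 from 17680809 to 17680968 had 87.6%, 80.3% and 91.6% in 3dN1dA, against 1.08%, 0.670% and 5.74% in 4dN (84.0 points, adjusted p = 7.1e-05 in the quasi-binomial model). The 116 bp region on chromosome 5 from 21904808 to 21904923 had 90.5%, 97.8% and 94.6% in 3dN1dA, against 6.00%, 16.9% and 9.82% in 4dN. In this region all 3 re-aerated libraries were also above 2 of the 3 dry embryo libraries, at 89.7%, 85.5% and 90.7%, except that 3dN1dA replicate 1 stood below 0h replicate 3. The 121 bp region on chromosome 2 from 15955884 to 15956004, with 34 sites, had 88.5%, 78.2% and 76.6% in 3dN1dA, against 0.698%, 0% and 2.00% in 4dN.

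The 5 long regions called lower after re-aeration were poor in sites, with 3 to 6 each. The clearest was the 123 bp region on chromosome 7 from 21786674 to 21786796, with 54.6%, 46.5% and 55.5% in 3dN1dA, against 76.6%, 76.7% and 74.3% in 4dN (-23.6 points, adjusted p = 4.84e-05 in the quasi-binomial model). The 4dA libraries of this region, at 65.4%, 52.3% and 55.1%, lay beside the re-aerated ones, and comparisons of 4dN with either group share the 4dN libraries. The 132 bp region on chromosome 2 from 29441229 to 29441360 had 46.98%, 41.7% and 46.98% in 3dN1dA, against 57.7%, 64.5% and 55% in 4dN, with 4dA at 40.97%, 45.5% and 41.1%. The 108 bp region on chromosome 7 from 2626120 to 2626227 had 23.2%, 24.0% and 20.7% in 3dN1dA, against 37.7%, 39.5% and 29.8% in 4dN. Here too the 4dA libraries, at 23.6%, 24.8% and 21.9%, overlapped the re-aerated ones and not those of 4dN.

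The other 2 calls of this kind were lost in some fits without 1 library. The 126 bp region on chromosome 8 from 21599594 to 21599719 had a difference of -11.5 points and was no longer called without 3dN1dA replicate 2, where it differed by -9.18 points. The 100 bp region on chromosome 2 from 1419603 to 1419702 had 45.4%, 45.5% and 42.6% in 3dN1dA, against 48.3%, 54.8% and 68.1% in 4dN, a difference of -12.6 points. Its call was lost in 5 of the 6 fits without 1 library, with -7.05 points without 4dN replicate 3, the library that stood high.

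The gases were also compared in coleoptiles over the long regions of the dry seed table. The median long region was 5.28 points higher in 4dN than in 4dA (interquartile range 1.10 to 10.7), against 4.92 points in shorter regions, and 839 of 988 long regions lay above 0. The quasi-binomial model called 45 long regions higher and 0 lower, where 1.92% of all regions were called higher: 4.55% of long and 1.38% of shorter regions. In the band of 200 to 400 reads the shares were 1.69% of long and 2.20% of shorter regions, and the median differences were 3.98 points in long and 5.57 points in shorter regions, so both orders were turned round in the band, where long regions still had more reads. The count fell to 23, 15 and 19 without 4dN replicate 1, 2 or 3, to 24, 14 and 9 without 4dA replicate 1, 2 or 3, and to 0 where only the spread of the compared groups was used. The difference between the gases was not called to differ between 4 d coleoptiles and 24 h embryos in any long region (0% of all regions; 61 long regions at an unadjusted p under 0.05 in the same model, and no other tool was run on this term), with a median of 2.15 points between the 2 differences.

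The 45 called regions were themselves mostly sparse in sites. They held a median of 6 sites, against 16 in the 943 that were not called, and 37 of the 45 belonged to the 249 long regions with the fewest sites per bp. Their median level was 61.5% in 24hN, 52.8% in 24hA and 59.6% in 4dN, well above the 30.0%, 26.1% and 28.4% of the regions that were not called. Their median read number was 523 per library, against 371.

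The largest of these differences was in the 109 bp region on chromosome 6 from 13690323 to 13690431, with 63.0%, 59.4% and 58.2% in 4dN, against 29.8%, 35.2% and 23.5% in 4dA. The groups did not overlap, and the difference of 30.6 points had an adjusted p of 0.00949 in the quasi-binomial model, but the call was lost without 4dA replicate 3 (27.6 points). The 116 bp region on chromosome 7 from 23623673 to 23623788 had 74.1%, 81.5% and 80.5% in 4dN, against 56.4%, 55.9% and 58.7% in 4dA (21.7 points, adjusted p = 0.0073 in the quasi-binomial model). Its call was kept without any 1 library, and it was the only 1 of the 5 largest of which this was true. Those on chromosome 3 from 22664750 to 22664886 (22.6 points) and on chromosome 7 from 8357059 to 8357270 (22.5 points) lost theirs in all 6 such fits, and that on chromosome 1 from 40346461 to 40346625 (21.5 points) without 4dA replicate 2. All 5 were lost where a region's spread came from 4dN and 4dA alone.

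In the oxygen table the long regions behaved otherwise than in the dry seed table: they differed less than the shorter ones. The mean level over the 242 long regions was 63.1%, 63.6% and 63.2% in 4dN, against 41.5%, 38.3% and 40.2% in 4dA. The shorter regions averaged 71.0% ± 0.503 in 4dN and 37.0% ± 2.06 in 4dA (SD, n = 3 each), so that the long ones were 7.73 points lower in 4dN and 3.01 points higher in 4dA. Only 7.02% of long regions reached 80% in 4dN, against 30.0% of shorter ones. After re-aeration the long regions averaged 52.5%, 52.8% and 53.6% in 3dN1dA and the shorter ones 54.5%, 54.0% and 54.7%.

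The gas comparison chose these regions, so its counts are a description. Of the 242 long regions, 239 were called higher and 0 lower in 4dN, where 98.6% of all regions were called higher and 0.0939% lower. The median difference was 23.4 points in long regions (interquartile range 18.9 to 28.0) and 33.3 points in shorter ones, and it declined along the length scale, with 40.98 points at 3 to 24 bp, 24.9 points at 75 to 99 bp, 23.9 points at 100 to 124 bp and 21.4 points at 150 to 199 bp, apart from 25.1 points in the 14 regions of 200 to 573 bp. No long region differed by 50 points, whereas 8.47% of the shorter ones did. It was 21.4 points in the 34 regions of 100 to 104 bp, just inside the limit, and 22.9 points in the 35 of 95 to 99 bp just outside it. In the band of 200 to 400 reads the medians were 29.3 points in 38 long and 26.8 points in 553 shorter regions, so the order was turned round in the band, where median read numbers were 353 in long and 271 in shorter regions.

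**Figure D4:**
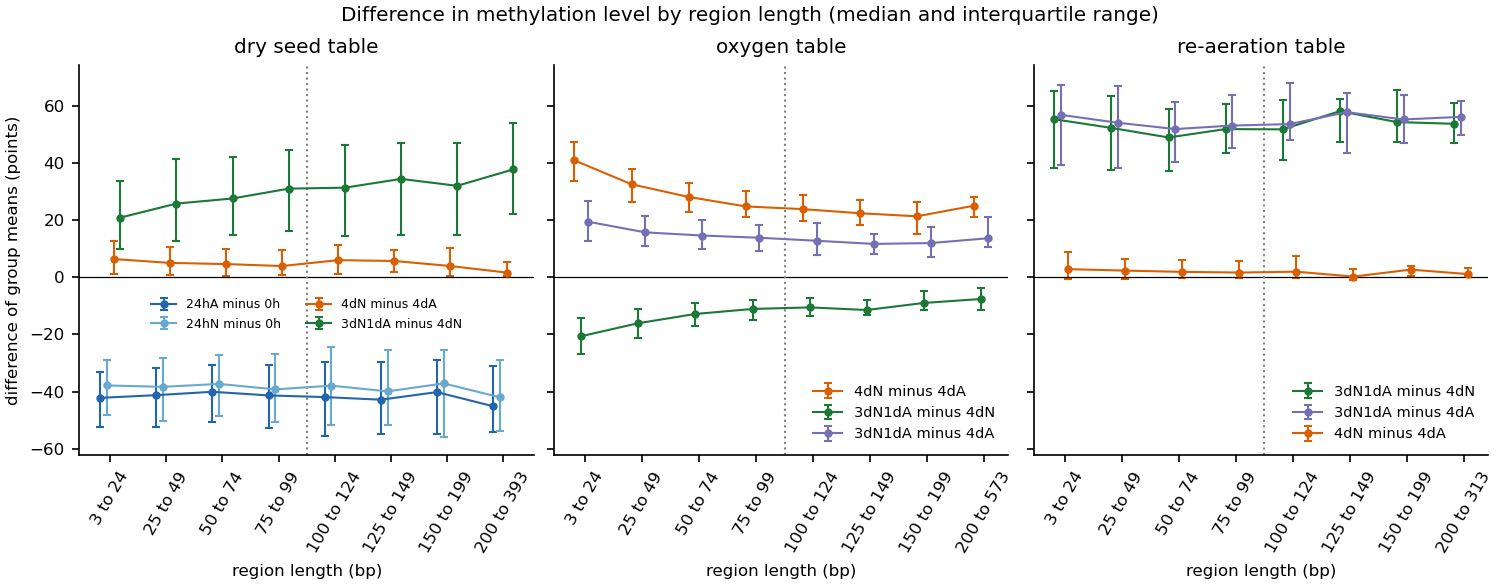
Difference of group means (y axis, percentage points) by region length (x axis, bp, classes of unequal width) for the comparisons of each table; points are medians over regions, bars interquartile ranges, and the dotted line marks 100 bp. The 24hA minus 0h difference of the dry seed table keeps to between -45.1 and -40.1 points. Its 3dN1dA minus 4dN difference rises already among the shorter classes, makes no jump at 100 bp and dips at 150 to 199 bp. The 4dN minus 4dA difference of the oxygen table shrinks up to 199 bp, while the median read number (not drawn) rises from 71.9 at 3 to 24 bp to 681 at 150 to 199 bp.

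The 5 long regions of the oxygen table with the largest difference differed by 35.7 to 38.2 points. The 111 bp region on chromosome 7 from 23329295 to 23329405 had 79.2%, 81.3% and 78.5% in 4dN, against 37.2%, 43.8% and 43.4% in 4dA. The 111 bp region on chromosome 1 from 30404675 to 30404785 had 82.9%, 83.5% and 81.4% in 4dN, against 43.96%, 39.996% and 51.8% in 4dA. In neither region did methylation disappear in 4dA, unlike the emptied regions of the dry seed table. The 222 bp region on chromosome 2 from 2194127 to 2194348 had 80.3%, 82.1% and 68.9% in 4dN, against 45.1%, 34.8% and 41.6% in 4dA. Of all 242, only the 100 bp region on chromosome 3 from 32785444 to 32785543 was lower in 4dN, with 8.15%, 7.41% and 7.997%, against 17.1%, 14.6% and 13.8% in 4dA, a difference of -7.31 points that was under the limit for a call.

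The longest region of all 3 tables, 573 bp on chromosome 4 from 29054758 to 29055330, was the last of 4 long regions in a stretch of 2011 bp, from 29053320 to 29055330, that held 1 shorter region as well. This stretch was chosen after its values were seen. The 573 bp region had 70.7%, 72.8% and 71.3% in 4dN, against 49.3%, 44.4% and 48.1% in 4dA. The 421 bp region from 29053320 to 29053740 had 59.0%, 57.1% and 57.1% in 4dN, against 29.6%, 28.9% and 27.7% in 4dA. The other 2, of 182 and 328 bp, differed by 30.7 and 18.9 points, so all 4 were higher in nitrogen. Their re-aerated levels stood in different positions: the 421 bp region had 44.2%, 45.9% and 44.5% in 3dN1dA, between both gases, whereas the 573 bp region had 67.5%, 67.1% and 68.6%, only 3.89 points below its mean in 4dN.

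Re-aerated coleoptiles had not been used to choose the regions of the oxygen table, but their comparisons share the 4dN or the 4dA libraries with that choice, and a level between the gases is favoured where those 2 groups were picked to differ. The mean of 3dN1dA lay between 4dN and 4dA in 233 of 242 long regions, which is 96.3%, and in 97.2% of shorter ones. The 3dN1dA level of the median long region lay 45.98% of the way from its 4dN level to its 4dA level (interquartile range 32.3% to 58.1%). That of the median shorter region lay 49.4% of the way. Over all regions the differences were smaller in long ones. Against 4dN they were -10.4 points in long and -16.0 points in shorter regions, and against 4dA 12.2 points in long and 16.4 points in shorter regions. In the band of 200 to 400 reads they were -11.2 points in long and -12.3 points in shorter regions against 4dN, and 15.4 points in long and 13.99 points in shorter regions against 4dA, where the order was turned round.

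Of the 242 long regions, 94 were called lower in 3dN1dA than in 4dN and 0 higher, which is 38.8%, where 39.2% of all regions were called lower, so the share was that of the table. The count fell to 47, 37 and 43 without 3dN1dA replicate 1, 2 or 3, to 42, 41 and 46 without 4dN replicate 1, 2 or 3, and to 54 where the spread came from 3dN1dA and 4dN alone. Against 4dA, 127 long regions were called higher in 3dN1dA and 0 lower, which is 52.5%, where 40.9% of all regions were called higher and 0.0939% lower. That count was 75 without 3dN1dA replicate 3 and 79 without 4dA replicate 2. It was 77 where the spread came from 3dN1dA and 4dA alone.

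Single long regions of the oxygen table lay at both ends of this range after 1 d of air. The 107 bp region on chromosome 3 from 28884722 to 28884828 had 36.5%, 29.6% and 30.5% in 3dN1dA, against 54.5%, 62.0% and 65.6% in 4dN (-28.5 points, adjusted p = 0.0145 in the quasi-binomial model), and its 4dA libraries, at 42.4%, 30.3% and 37.6%, overlapped the re-aerated ones. The 118 bp region on chromosome 6 from 30584430 to 30584547 had 32.5%, 42.3% and 37.9% in 3dN1dA, against 66.1%, 60.4% and 63.3% in 4dN. Its 4dA libraries, at 25.98%, 38.2% and 33.1%, likewise overlapped the re-aerated ones. In contrast, the 222 bp region on chromosome 2 described above stood near its 4dN level, with 74.9%, 73.9% and 76.5% in 3dN1dA, against 45.1%, 34.8% and 41.6% in 4dA (34.6 points, adjusted p = 0.00944 in the quasi-binomial model). The 171 bp region on chromosome 11 from 22020098 to 22020268 had 71.2%, 67.7% and 65.6% in 3dN1dA, against 40.5%, 31.9% and 39.9% in 4dA, with 4dN at 65.2%, 71.5% and 64.0%.

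In the re-aeration table most long regions were low in both 4 d groups and high after re-aeration. The mean level over the 81 long regions was 68.7%, 69.4% and 69.4% in 3dN1dA, 17.1%, 18.3% and 17.3% in 4dN, and 14.3%, 13.9% and 14.4% in 4dA. The shorter regions averaged 66.9% ± 0.880 in 3dN1dA, 20.3% ± 0.575 in 4dN and 16.1% ± 0.409 in 4dA (SD, n = 3 each), so the long ones were 2.28 points higher in 3dN1dA and 2.76 points lower in 4dN. Of the 81 long regions, 49 were under 20% in 4dN and 58 in 4dA. The comparison of 3dN1dA with 4dN chose these regions: 77 were called higher and 3 lower in 3dN1dA, where 90.8% of all regions were called higher and 6.77% lower, with a median difference of 53.8 points in long and 51.9 points in shorter regions (56.0 and 47.98 points in the band of 200 to 400 reads). It was 55.4 points in the 12 regions of 100 to 104 bp and 49.1 points in the 24 of 95 to 99 bp.

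Against coleoptiles kept in air throughout, 77 of 81 long regions were called higher in 3dN1dA, where 90.3% of all regions were called higher, and 0 lower, with a median of 56.0 points in long and 53.7 points in shorter regions. This comparison shares the 3dN1dA libraries with the choice of regions. The largest difference was in the 104 bp region on chromosome 11 from 25618974 to 25619077, with 95.7%, 82.2% and 91.6% in 3dN1dA, 0.590%, 0% and 0% in 4dN, and 0.536%, 0% and 1.22% in 4dA. It lies wholly inside the 198 bp region of the dry seed table described above. The 207 bp region on chromosome 4 from 7985315 to 7985521 was among those with the smallest spread, with 75.4%, 72.0% and 76.2% in 3dN1dA, 0.301%, 0.540% and 0.463% in 4dN, and 0%, 0.212% and 0.555% in 4dA.

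The longest region of this table, 313 bp on chromosome 2, ran from base 23 to base 335 of the authors' coordinates, at the very start of the chromosome. It had 73.5%, 66.8% and 79.6% in 3dN1dA, 23.4%, 25.4% and 23.1% in 4dN, and 14.9%, 16.5% and 19.0% in 4dA. The re-aerated libraries lay far above the others, and the 4dN libraries above those of 4dA. It overlapped a 99 bp region of the dry seed table.

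Only 3 long regions were called lower in 3dN1dA than in 4dN. The 148 bp region on chromosome 8 from 20833712 to 20833859 had 24.4%, 15.2% and 21.3% in 3dN1dA, 42.9%, 44.9% and 44.6% in 4dN, and 10.2%, 15.9% and 18.0% in 4dA. The 115 bp region on chromosome 4 from 35076902 to 35077016 had 41.2%, 41.98% and 27.8% in 3dN1dA, 59.1%, 54.3% and 57.0% in 4dN, and 43.5%, 34.0% and 41.2% in 4dA. The 100 bp region on chromosome 1 from 18019616 to 18019715 had 25.9%, 26.5% and 28.3% in 3dN1dA, 35.9%, 48.5% and 40.5% in 4dN, and 31.3%, 29.3% and 28.0% in 4dA. In all 3 the nitrogen libraries stood above those of both other groups. These regions were picked for 4dN above 3dN1dA, and comparisons of 4dN with either group share the 4dN libraries.

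The region on chromosome 8 was also the only long one of this table called between the gases, 29.4 points higher in 4dN than in 4dA (adjusted p = 0.0473 in the quasi-binomial model), where 0.224% of all regions were called higher. This comparison shares the 4dN libraries with the choice of regions. The call was lost in each of the 6 fits without 1 library and where the spread came from 4dN and 4dA alone. The median long region was 1.38 points higher in 4dN than in 4dA and the median shorter region 2.20 points higher (0.823 and 2.86 points in the band).

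The spread between libraries was smaller in long than in shorter regions in every group of the 3 tables. The median SD over the 3 libraries of a group in the dry seed table was 4.74 points in long and 7.22 points in shorter regions at 0h, 5.91 and 8.45 points in 3dN1dA, and 3.24 and 4.41 points in 4dA. In the oxygen table it was 2.92 points in long and 5.24 points in shorter regions of 4dN, and 3.39 and 6.73 points in 4dA. The widest gap was in 3dN1dA of the re-aeration table, with 4.68 points in long and 9.58 points in shorter regions. Long regions had more reads, and among regions with 200 to 400 reads the values were closer: 5.60 points in long and 5.73 points in shorter regions at 0h, and 6.53 and 6.94 points in 3dN1dA of the dry seed table. In the same band they kept apart in 4dA of the re-aeration table, with 1.63 points in 44 long and 3.37 points in 159 shorter regions.

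**Figure D5:**
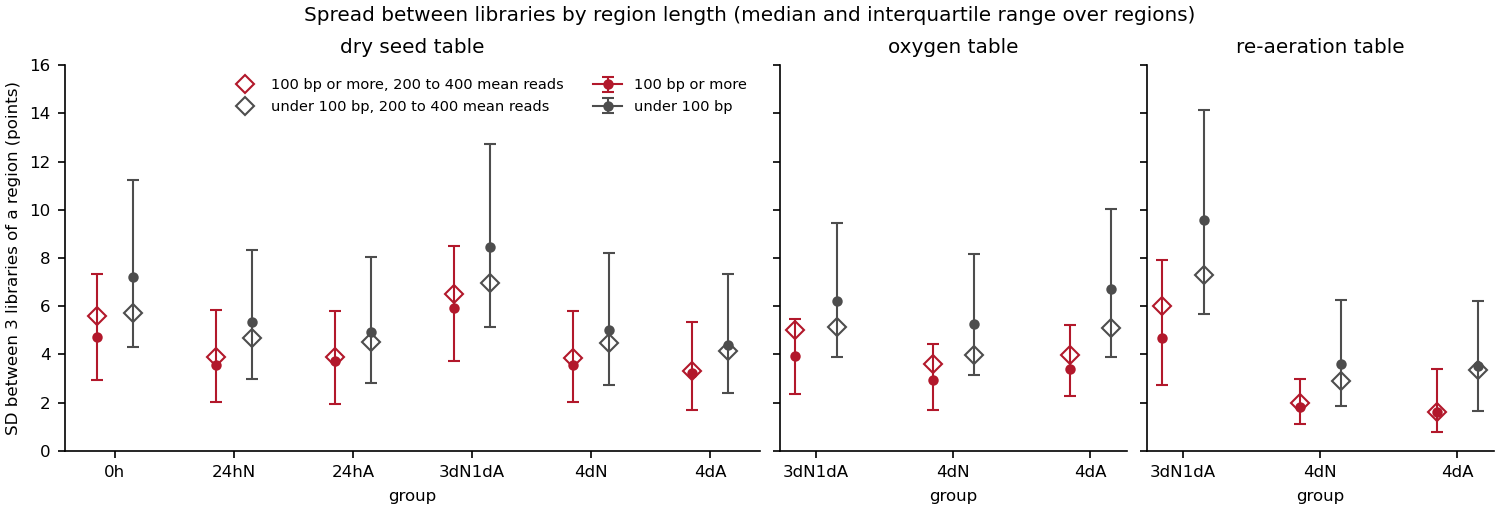
SD between the 3 libraries of a group (y axis, percentage points) per group (x axis), for regions of 100 bp or more and under 100 bp; filled points are medians over regions with interquartile ranges, and open diamonds are medians over regions with 200 to 400 mean reads. Long regions have the smaller median SD in all groups, and at 0h of the dry seed table the diamonds, at 5.60 and 5.73 points, nearly meet.

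The libraries differed by more than independent reads would. At 0h of the dry seed table the SD of a long region was, in the median, 2.85 times its counting SD, against 2.33 times in shorter regions, and in 3dN1dA it was 2.74 times in long and 2.16 times in shorter regions. In the other 4 groups of that table it was between 1.45 and 1.65 times in long regions. Reads of neighbouring cytosines are not independent, and if reads were counted per cytosine the counting SD is too small. The largest spread among long regions was on chromosome 3 from 25443229 to 25443360, a 132 bp region of the dry seed table with 69.7%, 90.6% and 85.4% in 3dN1dA, against 15.7%, 64.3% and 24.4% in 4dN. There 4dN replicate 2 stood alone. The 102 bp region on chromosome 9 from 3084456 to 3084557 had 86.1%, 93.1% and 77.7% in 3dN1dA, against 42.2%, 70.1% and 16.6% in 4dN, where the groups still did not overlap.

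Long regions of the dry seed and re-aeration tables often lay at the same place. Of the 988 long regions of the dry seed table, 302 overlapped a region of the re-aeration table by at least 1 bp, which is 30.6%, against 8.74% of shorter regions, and a longer region has more bases to overlap. Of the 81 long regions of the re-aeration table, 77 overlapped the dry seed table, which is 95.1%, against 79.8% of its shorter regions, and 68 of them met a long region there. The 301 bp region on chromosome 11 from 27508420 to 27508720 lay inside the 364 bp region of the dry seed table, with 73.7%, 59.4% and 65.2% in 3dN1dA, against 14.4%, 13.1% and 12.3% in 4dN. The 282 bp region on chromosome 3 from 16563869 to 16564150 shared 261 bp with a 265 bp region of the dry seed table that had 19.96%, 18.1% and 19.6% in 24hA, against 64.5%, 71.9% and 68.5% in 0h. In that region the re-aerated libraries, at 72.7%, 75.006% and 75.5%, all stood above those of the dry embryo.

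Overlaps with the oxygen table were few: 5 of 988 long regions of the dry seed table (0.506%) and 1 of 81 of the re-aeration table (1.23%). The 175 bp region on chromosome 7 from 24779402 to 24779576 was met by a region of both other tables. It had 81.4%, 84.1% and 83.7% at 0h, 50.2%, 54.0% and 43.9% in 24hN, and 40.2%, 47.6% and 51.6% in 24hA. In coleoptiles it had 73.3%, 77.7% and 77.7% in 3dN1dA, 33.9%, 51.8% and 57.4% in 4dN, and 34.4%, 26.5% and 24.4% in 4dA. The re-aerated libraries stood above those of both other coleoptile groups, while 4dN and 4dA overlapped through 4dN replicate 1.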

How the data were processed

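MethylC-seq libraries were prepared from 600 ng of genomic DNA with 0.5% lambda DNA added, per the labels' protocols. The authors deposited 3 tables of regions, 1 for all 18 libraries and 2 for the 9 coleoptile libraries. Per the file headers, each region and library has a total read count, a methylated read value and a methylation percent. The deposited methylated values were treated as estimated counts, since each is a whole number (tolerance 0.05) times a library factor of 0.9977 to 0.9983, and were rounded. The aligner, region caller and genome build were not given in the sources used here. Unused per-library columns numbered 0.

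A quasi-binomial logistic model with a term per group was fitted to all regions of a table (Python 3.11.15, numpy 2.4.6, scipy 1.17.1), with no covariate, a region's dispersion shared by all groups and kept at 1 or above, libraries under 10 reads left out, at least 2 libraries per group and Benjamini-Hochberg adjustment over the table. The same model without covariates was checked on simulated counts. The 11 comparisons and the gas-by-time term are those of the report. Alternatives were other read minimums, thresholds, length limits and dispersions, a replicate block, limma 3.58.1 on the levels, leaving out libraries, and a read band chosen after seeing the data. The members, comparisons and alternatives were chosen with earlier results of these data known. Described regions were taken by rule: the 3 longest, the 5 largest and 3 smallest differences, the 3 largest and 3 smallest spreads, up to 5 called against the majority, up to 5 called in each other comparison and up to 5 overlaps per table. The stretch on chromosome 4 falls outside it in part. Totals over long regions were between 32097 and 779464 reads per library and table.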

Additional observations from a re-analysis of the deposited data

How the results depend on the processing

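In the dry seed table, without 1 library at a time, calls numbered 976 to 983 in 24hA against 0h (medians -42.8 to -41.04 points), 943 to 950 in 24hN against 0h (-39.6 to -37.9), 0 to 0 in 24hN against 24hA (2.37 to 3.48), 748 to 774 in 3dN1dA against 4dN (32.4 to 33.3), 9 to 24 in 4dN against 4dA (4.56 to 5.51) and 0 to 0 for the gas-by-time term. In the oxygen table they numbered 230 to 237 in 4dN against 4dA (22.3 to 24.1), 37 to 47 in 3dN1dA against 4dN (-10.7 to -9.80) and 75 to 111 in 3dN1dA against 4dA (11.5 to 12.6). In the re-aeration table they numbered 80 to 80 in 3dN1dA against 4dN (52.2 to 54.4), 77 to 77 in 3dN1dA against 4dA (55.1 to 57.8) and 0 to 0 in 4dN against 4dA (0.972 to 1.97).

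Calls of 4dN against 4dA in the dry seed table numbered 9 with a minimum of 20 points, 10 at an adjusted p under 0.01 and 0 with a spread from the compared groups alone. In the oxygen table these settings gave 8, 1 and 54 calls in 3dN1dA against 4dN, and 46, 24 and 77 in 3dN1dA against 4dA. The single call between the gases in the re-aeration table became 0 at 0.01 and 0 with the compared groups only. The median of 4dN against 4dA in the dry seed table was 3.42 points from 150 bp, that of 3dN1dA against 4dN was 34.1 points from 150 bp and 32.1 from 80 bp, and the oxygen table's 3dN1dA against 4dN was -8.51 points from 150 bp. The re-aeration table's 3dN1dA against 4dA was 54.6 points from 80 bp. With 200 to 400 reads, a band chosen after seeing the data, medians in the dry seed table were -46.8 points in 24hA against 0h, -44.2 in 24hN against 0h, 38.9 in 3dN1dA against 4dN and 3.98 in 4dN against 4dA. In that band they were 29.3 in 4dN against 4dA, -11.2 in 3dN1dA against 4dN and 15.4 in 3dN1dA against 4dA of the oxygen table, and 56.0 in 3dN1dA against 4dN of the re-aeration table. No cause of these shifts was tested.

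Libraries of the same number hardly varied together (correlations of -0.069 to 0.0494). With 3 libraries per group this cannot exclude that such libraries shared a batch or culture. With the replicate number as a block, the calls in 3dN1dA against 4dN of the oxygen table numbered 46 and the single call between the gases in the re-aeration table became 0, while no other count of long regions moved by over 1.5 times. Limma called 58 long regions in 4dN against 4dA of the dry seed table. In all, 152 of 185 alternative counts stayed within 1.5 times of the reported count. Of 143 alternative medians, 124 moved by less than the combined SD of the library means of the compared groups. Of 1500 values of described regions, 1425 kept their sign and were called or not called as reported, whatever the size of the shift. The 2 that turned round were those of the region on chromosome 3 from 13459003 in 24hA against 0h (1.24 and 1.87 points), called at -10.8 points without 0h replicate 1. Precision is limited by 3 libraries per group and, in shorter regions, by reads.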

Other observations

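Long regions were found on all 12 numbered chromosomes in each table. In the dry seed table they made up between 12.5% of the regions on chromosome 6 and 19.9% on chromosome 8. In the oxygen table their share was between 6.12% on chromosome 10 and 14.9% on chromosome 1, and in the re-aeration table between 5.63% on chromosome 5 and 13.3% on chromosome 8. Of 7 regions that the dry seed table places on a sequence named S, which the sources used here do not explain, 3 were long. Their means were 41.2%, 72.4% and 67.2% in 3dN1dA, against 3.69%, 27.8% and 2.97% in 4dN.

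The closest pair of long regions in the dry seed table lay 139 bp apart on chromosome 9, and in the re-aeration table no gap was under 11126 bp. In the dry seed table the number of reads of a region rose with its length, with Pearson's r of 0.730 across all 5908 regions and 0.481 across the 988 long ones. These regions share the same libraries and are no independent replicates.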
